A study of Mus musculus with 20 samples.

Results

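The 10 control libraries of a series of 20 were examined: 3 MxCre, 3 IgG and 4 TamCre libraries of sorted mouse DN3 thymocytes, chosen because their labels name them as the unperturbed arm of each comparison. All came from C57BL/6 mice. MxCre mice carried MxCre, a Cre driven by an interferon-inducible promoter, with no floxed Zmiz1, and were sorted 8 weeks after 5 injections of 40 mcg pI-pC, given 2 days apart. IgG mice received 10 mg/kg of an isotype control antibody and were sorted after 24 h; the labels name neither their genotype nor how many mice they were. TamCre mice carried Rosa26CreERT2, a tamoxifen-inducible Cre from a ubiquitously active locus, with no floxed Zmiz1, and were sorted 43 to 44 h after 0.2 mg/g tamoxifen. The labels give 3 mice for the MxCre group and 4 for the TamCre group, the same as their numbers of libraries. RNA came from 100K to 400K sorted cells. A SMARTer Ultra low input protocol starting from 50 ng was used for the MxCre and IgG groups, here called the SMARTer groups, whereas TamCre RNA (100 ng) went through TruSeq mRNA v2. Kit, mouse model and treatment therefore cannot be told apart between TamCre and the SMARTer groups.

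DN3 is the stage of the double-negative thymocyte, lacking CD4 and CD8, at which the T cell receptor beta locus is rearranged by the RAG recombinase and the pre-T cell receptor is assembled from the new beta chain, the invariant pre-T alpha chain and the CD3 subunits. Notch1, activated by ligands on thymic epithelium, is cleaved and its intracellular part joins RBPJ, MAML and coactivators on DNA to drive genes such as Ptcra, Dtx1, Hes1 and Myc. Cells that express a working beta chain pass beta-selection, divide rapidly and go on to the double-positive stage.

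The SMARTer libraries held 15277568 to 19133150 counts each and the TamCre libraries 71548167 to 101425241. Levels are given as CPM, the count relative to a library total scaled by the TMM method, which does not correct for transcript length; per length, the authors' group mean FPKM are given. A count of 3 corresponded to 0.154 to 0.187 CPM in a SMARTer library and 0.0288 to 0.0419 CPM in a TamCre library; a gene with no read may lie up to that level, counting error only. Rn45s, the precursor of ribosomal RNA, took 6.76 to 8.82% of the counts in MxCre, 2.75 to 3.74% in IgG and 0.449 to 1.04% in TamCre. The gate in the labels reads CD44-positive and CD25-negative, whereas DN3 cells are textbook CD44-negative and CD25-positive. In these libraries Il2ra, which encodes CD25, ranged from 2203 to 4282 CPM and Cd44 from 2.36 to 7.09 CPM, so transcripts of the CD25 gene were abundant and those of Cd44 were low in every library. Xist, the RNA of the inactive X chromosome, lay between 660.5 and 2986 CPM, and the Y-linked Ddx3y and Uty did not exceed 0.0658 and 0.12 CPM.

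Of 23284 genes in the count table, 10281 reached 1 CPM in all 10 libraries, 9947 of them protein-coding, and 6465 had no read in any. A level of 100 CPM in all 10 libraries was reached by 1453 genes and 1000 CPM by 33. By the mean of the 3 group means the 10 leading genes were Rn45s, Eef1a1, Malat1, Hspa8, Rpsa, Hsp90ab1, Eef2, Il2ra, Rag1 and Rplp0. Translation factors, ribosomal proteins and chaperones filled most of this list, together with Il2ra and Rag1, a receptor and a recombinase that mark the stage. Eef1a1, the elongation factor that brings aminoacyl-tRNA to the ribosome, had 6097, 5811 and 7272 CPM in MxCre, 6152, 5356 and 5312 in IgG and 12475, 9945, 11068 and 10759.5 in TamCre. Rpsa, a protein of the small ribosomal subunit, held a narrow range over all 10 libraries, 3500.3 to 4889 CPM, with ranks of 3 to 8. Hspa8, the constitutive HSP70 chaperone, ranged from 3339.8 to 5064 CPM and Eef2, the translocation factor of the ribosome, from 3215 to 5099 CPM. Hsp90ab1, the constitutive HSP90, was at 3633, 3559 and 3896 CPM in MxCre, 2506, 2606 and 2373 in IgG and 6231, 4163, 5031 and 5191 in TamCre. Malat1, a nuclear long noncoding RNA, was not shared in this way: 7272, 6975 and 3427 CPM in MxCre and 10250.5, 13078 and 13124 in IgG stood against 262, 359.6, 273 and 237 in TamCre. Rplp0, of the ribosomal stalk, ranged from 2182 to 2881 CPM in the SMARTer libraries and from 3348 to 4111 in TamCre, with no overlap.

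Per length, by the authors' group mean FPKM, the 10 highest genes included Mir5114, Gm20594, Mir3064, Rn45s, Gm15772, Eef1a1, Rplp2, Rpl35 and Rplp1. The FPKM of the microRNA genes rested on few reads: Mir5114 was listed at 62635 FPKM in MxCre although its libraries held 1.64, 13.2 and 9.94 CPM, and the 4 TamCre libraries held none. Gm20594 was listed at 14328, 29290.1 and 160.3 FPKM in MxCre, IgG and TamCre. The ribosomal genes were present in both kits: Rpl35 was listed at 3534 in MxCre, 3642 in IgG and 3999.7 in TamCre, Rplp2 at 5002 in MxCre, 5563 in IgG and 2628 in TamCre and Rplp1 at 2882 in MxCre, 2197 in IgG and 5973 in TamCre. Gm15772 is annotated in RefSeq as a transcribed pseudogene, and its reads may be shared with its parent gene. Values between 1 and 2 FPKM are ambiguous in the deposited table, so FPKM are given only from 2 upward.

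All 10 DN3 markers exceeded 1 CPM in every control library, with a median level of 575 CPM against 1.39 CPM over all genes of the table. Their median rank was 394 of 23284. In RefSeq coordinates on GRCm38.p6, the assembly also called mm10, Il2ra spans chr2:11642792-11693194, Rag1 chr2:101638252-101649532, Notch1 chr2:26457902-26503822, Ptcra chr17:46755663-46763712 and Dtx1 chr5:120680203-120711867.

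Il2ra, the alpha chain of the IL-2 receptor, had 2325, 3443 and 4282 CPM in MxCre, 3153, 3745 and 3587 in IgG and 2241, 2327, 2203 and 2349.6 in TamCre, and ranked 4 to 20. TamCre libraries lay at the lower edge of the MxCre range. Notch1, the receptor on which T lineage commitment depends, had 2832, 3171 and 2697 CPM in MxCre, 3079.8, 2988 and 2857 in IgG and 2681, 2089, 1992 and 1988 in TamCre. It ranked 9 to 23, and its coefficient of variation over the 10 libraries was 17.1% against 25.9% for Il2ra and 71.2% for Rag1. TamCre 1 was the highest TamCre library, just below the lowest MxCre library. Rag1, the catalytic subunit of the recombinase, differed most: it had 3118, 3981 and 3248 CPM in MxCre, 4862, 4530.1 and 4849 in IgG and 481, 604, 637 and 561 in TamCre. Its ranks ran from 4 in an IgG library to 326 in a TamCre library, and the kits did not overlap. Rag2, its partner, had 142, 139 and 100.6 CPM in MxCre, 171, 188 and 182 in IgG and 59.6, 106, 97.3 and 84.8 in TamCre, with MxCre 3 inside the TamCre range. Per length it was listed below Rag1 in every group, at 44.6 in MxCre, 65.2 in IgG and 31.9 in TamCre FPKM.

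Ptcra, the invariant pre-T alpha chain, had 158, 198 and 132 CPM in MxCre, 224, 205 and 203 in IgG and 316, 344, 335 and 312 in TamCre, so every TamCre library was above every SMARTer library. Dtx1, a Notch target that encodes a ubiquitin ligase, had 136, 186 and 188 CPM in MxCre, 159.8, 189 and 160.3 in IgG and 530.4, 453, 403 and 419.6 in TamCre, again without overlap between kits. Hes1, a transcriptional repressor induced by Notch, was at 81.9, 60.4 and 69.9 CPM in MxCre, 90.9, 51.3 and 79.9 in IgG and 157, 128, 114 and 114 in TamCre. Nrarp, a negative feedback regulator of Notch, was between 4.61 and 14 CPM and was the lowest marker per length, at 2.72 in MxCre, 2.27 in IgG and 4.09 in TamCre FPKM. Notch3 ranged from 679.6 to 1135 CPM, with the kits overlapping. Cd3e, a signalling subunit of the receptor complex, had 933, 1086 and 999 CPM in MxCre, 1256, 982 and 1104 in IgG and 579, 599.5, 567 and 589.5 in TamCre.

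All of these markers passed the test between TamCre and the mean of MxCre and IgG, 4 higher and 6 lower in TamCre, where 66.6% of 13201 tested genes did so (FDR under 0.05 in edgeR). Since most genes tested differed between TamCre and the SMARTer groups, nothing is read from that count. The sizes were spread widely: Rag1 had a log2 fold change -2.83 ± 0.11 SE, FDR 3.4e-11, Dtx1 a log2 fold change 1.41 ± 0.11 SE, FDR 2e-08, Ptcra a log2 fold change 0.82 ± 0.10 SE, FDR 3.01e-06, Il2ra a log2 fold change -0.59 ± 0.13 SE, FDR 0.00103, and Notch1 a log2 fold change -0.43 ± 0.10 SE, FDR 0.00147. Between IgG and MxCre, within the SMARTer kit, none of the 10 passed, against 2.92% of all genes tested, and the log2 fold changes ran from -0.17 for Nrarp to 0.50 for Rag2. A difference that misses the threshold does not show equal levels. Per length, the highest markers by the authors' group means were Il2ra (733 in MxCre, 791 in IgG and 508 in TamCre FPKM) and Cd3e (719 in MxCre, 794 in IgG and 346 in TamCre FPKM). By CPM, in contrast, Cd3e lay below Il2ra and Notch1 in every library. Rag1 followed in the SMARTer groups, at 529 and 753 FPKM, but at 91.2 FPKM in TamCre it lay below Ptcra, which was at 213.

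**Figure D1:**
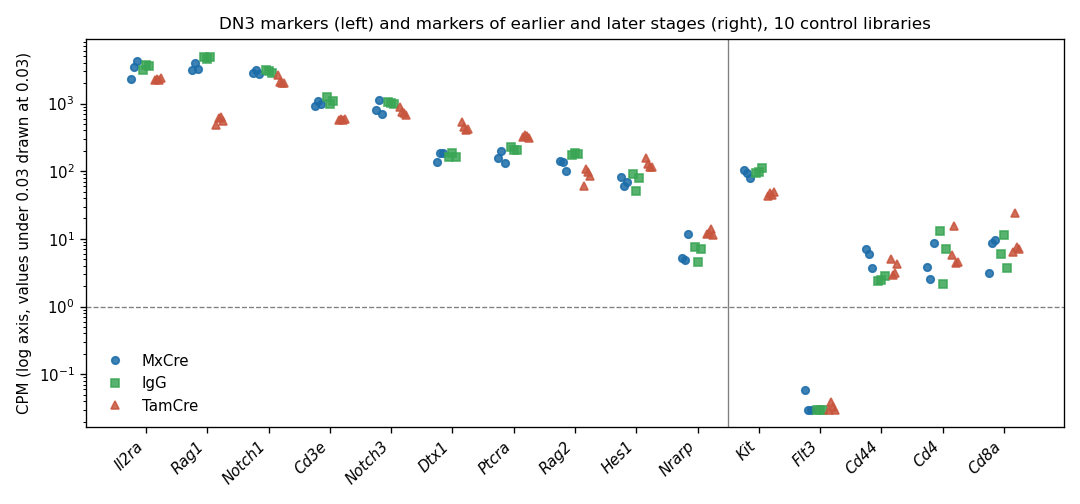
Level of each DN3 marker and of 5 genes of earlier or later stages (horizontal axis) in CPM (vertical log axis), 1 point per library for 3 MxCre, 3 IgG and 4 TamCre libraries, with a dashed line at 1 CPM. Il2ra and Notch1 stay within 1988 to 4282 CPM in all libraries, Rag1 falls into separate levels by kit, and Flt3 is at or near 0.

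The genes of the pre-T cell receptor and its signalling were all expressed: 21 of 21 members reached 1 CPM in all 10 libraries, with a median of 233 CPM. Cd3g, another CD3 subunit, had 1327, 1129 and 956 CPM in MxCre, 1118, 1001 and 1030.3 in IgG and 1454, 1650.4, 1609.9 and 1726 in TamCre. Lck, the kinase that starts the signal, showed tight groups at 813, 943 and 788 CPM in MxCre, 847, 851 and 874 in IgG and 1875, 1823, 1800.2 and 1812 in TamCre, where the kits differed and the SMARTer groups overlapped. Ptprc, which encodes the phosphatase CD45, ran the other way, from 1058 to 1336 CPM in the SMARTer libraries and from 614 to 686 in TamCre. Syk and Zap70, the kinases that dock on the phosphorylated chains, were both present. Syk ranged from 114 to 165 CPM in SMARTer libraries and 84.4 to 95.2 in TamCre, and Zap70 from 24.4 to 50 and 51.6 to 78.3 CPM, so Syk was the lower and Zap70 the higher in TamCre, each without overlap. Per length, Syk and Zap70 were listed at 22.2 and 14.7 FPKM in MxCre, 27.4 and 13.5 in IgG, and 17.4 and 32.3 in TamCre; the order of the genes turned between kits. Between kits, 9 higher and 7 lower of 21 tested passed, where 66.6% of all genes tested did so, 34.4% higher and 32.2% lower. The list's median log2 fold change was 0.14 against 0.03 over all genes.

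V(D)J recombination genes were likewise expressed in full, 13 of 13 at 1 CPM in all libraries. Dntt, the terminal transferase that adds untemplated nucleotides at the joints, had 3534, 3374 and 2484 CPM in MxCre, 3484, 2936 and 2979 in IgG and 2111, 1915, 2245 and 2193 in TamCre, ranks 7 to 28. MxCre 3 was the lowest SMARTer library and TamCre lay below all of them. Of the genes that process and join the broken ends, Xrcc6 (Ku70) ranged from 366 to 549 CPM, Lig4, the ligase, from 57.6 to 186, Dclre1c, the hairpin-opening nuclease Artemis, from 28.2 to 100.4, and Nhej1 from 2.06 to 6.76. Hmgb1 and Hmgb2, DNA-bending cofactors of the recombinase that also act in chromatin of dividing cells, were the only members of 13 tested called between IgG and MxCre. Both were lower in IgG, as were 2.03% of all genes tested. Hmgb1 had a log2 fold change -0.59 ± 0.12 SE, FDR 0.026, and Hmgb2 a log2 fold change -1.11 ± 0.18 SE, FDR 0.00938. Hmgb2 had 533, 299 and 491 CPM in MxCre, 239, 206 and 166 in IgG and 872, 889, 997 and 891 in TamCre. Between kits 3 higher and 8 lower of 13 tested passed, against 34.4% higher and 32.2% lower over all genes, and the list's median log2 fold change was -0.77.

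In the Notch pathway, receptors differed in level and in their change between kits. Notch2 had 197, 202 and 202 CPM in MxCre, 189.5, 177 and 164 in IgG and 70.4, 48.6, 49.2 and 52.9 in TamCre. Notch4 did not exceed 5.42 CPM. Per length the order of the authors' means was the same in each group, with Notch1 at 257 in MxCre, 266 in IgG and 206 in TamCre, Notch3 at 93.9 in MxCre, 106 in IgG and 82.2 in TamCre, and Notch2 at 16.6 in MxCre, 14.8 in IgG and 4.63 in TamCre FPKM. Of 5 ligand genes only Jag2 reached 1 CPM in all libraries, at 5.52 to 11.4 CPM, and Dll4, the ligand that thymic epithelium presents, did not exceed 0.883 CPM. All 8 protease genes were expressed, led by Adam10, the sheddase that makes the first ligand-induced cut, with 199.6, 209.9 and 240.0 CPM in MxCre, 233, 255 and 214 in IgG and 109, 92.1, 108 and 105 in TamCre. The gamma-secretase genes Ncstn (62.3 to 81.4 CPM in SMARTer libraries, 108 to 113 in TamCre) and Aph1a (41.8 to 75.9 and 73.3 to 92.2) were also among the higher. Among glycosyltransferases, which tune the receptor for its ligands, Pofut1 ranged from 49.7 to 66.1 CPM over all libraries, Lfng from 30.2 to 50.2, and Mfng from 24 to 38 in SMARTer libraries and 76.9 to 97 in TamCre. Poglut1 and Rfng were lower, reaching 40.3 and 34.4 CPM.

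The nuclear complex was fully expressed. Rbpj, the DNA-binding subunit, ranged from 169 to 193 CPM in SMARTer libraries and 105 to 123 in TamCre. Crebbp and Ep300, histone acetyltransferases recruited by MAML, showed 398 to 476 and 239.8 to 291 CPM in SMARTer libraries against 68.6 to 86.6 and 112 to 140.2 in TamCre. Zmiz1, the PIAS-like coregulator that is intact in these controls, had 292, 355 and 327 CPM in MxCre, 305, 282 and 257 in IgG and 326, 289.7, 272 and 280.3 in TamCre, a range within which all groups overlapped (log2 fold change -0.05 ± 0.09 SE, FDR 0.633). The other 6 members of the complex list were called lower in TamCre, with a list median of -1.08 on the log2 scale; the list's median transcript length was 7482 bases against 3302 over genes tested. Its part in the difference was not tested. Of 15 target and feedback genes, 13 reached 1 CPM in all libraries, the exceptions being Hes5 and Hey1, at most 4.5 and 1.95 CPM. Myc, a growth regulator and direct Notch1 target in this lineage, had 232, 133 and 103 CPM in MxCre, 175, 109.8 and 115 in IgG and 556, 597, 548 and 564 in TamCre. Itch, a ubiquitin ligase that acts on Notch, ranged from 98.9 to 127 CPM in SMARTer libraries and 69.1 to 73 in TamCre. Between kits 8 higher and 3 lower of 15 tested of the targets passed (median log2 fold change 0.82), beside 66.6% of all genes. Between IgG and MxCre none passed, beside 2.92% of all genes.

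Transcription factors of the T lineage were expressed with 1 exception, 25 of 26, Id1 being at most 2.53 CPM. Myb, Tcf7, Bcl11b and Ets1 were the 4 highest by CPM. Tcf7, which encodes the Notch-induced factor TCF1, had 1528, 1189.9 and 1324 CPM in MxCre, 1189, 1087 and 1054 in IgG and 2161, 1683, 1831 and 1812 in TamCre. Bcl11b, a factor needed for T lineage commitment, had 1314, 1309 and 1169 CPM in MxCre, 1593, 1682 and 1575 in IgG and 518, 566, 520.3 and 554 in TamCre. Myb, required for beta-selection, showed 1781, 1548 and 1411 CPM in MxCre, 1993, 2011 and 1944 in IgG and 702, 962, 829 and 865 in TamCre. Thus Tcf7 was the higher and Bcl11b and Myb the lower in TamCre, each without overlap between kits. Ets1 ranged from 966 to 1083 CPM in SMARTer libraries and 540.3 to 635 in TamCre. The E protein genes Tcf3 and Tcf12, whose products drive Ptcra and Rag expression, ranged from 304 to 465 and from 416 to 663 CPM, while their inhibitors Id2 and Id3 did not exceed 9.91 and 38.6 CPM. Gata3 and Lef1 lay between 111 and 193 and between 243 and 405 CPM. Spib, an ETS factor of DN2 and DN3 cells, was lowest in MxCre 3, at 7.56 CPM, and otherwise 25.4 to 64.7. Of 26 members tested, Runx1 was the only one called between IgG and MxCre, where 2.92% of all genes tested were called. Nothing is read about the list from this 1 call. Runx1 had 867, 848 and 896 CPM in IgG against 664, 663 and 548 in MxCre (log2 fold change 0.48 ± 0.11 SE, FDR 0.0339).

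Of the cytokine receptor genes, Il7r, the receptor for the survival cytokine of double-negative cells, ranged from 140.2 to 171 CPM in SMARTer libraries and 101.4 to 131 in TamCre. Il2rb, the beta chain needed for high-affinity IL-2 signalling, was at most 0.0586 CPM in SMARTer libraries, and in TamCre it had 6.09, 0.778, 0.647 and 0.293 CPM, highest in TamCre 1. The downstream kinase gene Jak1 ranged from 557 to 618 and 307 to 352 CPM in the kits, Stat5a from 173 to 209 and Stat5b from 214 to 309.6 CPM over all libraries. Adhesion genes were led by Itga4 (719 to 971 CPM in SMARTer libraries, 427 to 464 in TamCre), an integrin subunit, with Selplg, which encodes the selectin ligand PSGL-1, at 183 to 261 and 503 to 597, and Itgal at 291 to 404 and 299.8 to 373. Ccr7 and S1pr1, which guide later migration and exit from the thymus, did not exceed 4.85 and 1.79 CPM.

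Genes of the earlier stages differed widely in level. Of 17 early thymic progenitor and DN2 genes with data, 6 reached 1 CPM in all 10 libraries (35.3%, against 44.2% of all genes in the table), and the list median was 0.599 CPM, against 1.39 CPM. Flt3, a receptor of early progenitors, did not exceed 0.0586 CPM, and Lyl1, Lmo2, Tal1, Meis1 and Gata2, transcription regulators of progenitors, did not exceed 2.97, 0.796, 1.82, 1.78 and 0.221 CPM. Kit, the stem cell factor receptor of DN1 and DN2 cells, was the exception, with 103, 94.8 and 78.8 CPM in MxCre, 93.4, 98.8 and 112 in IgG and 43.5, 47.3, 44.6 and 48.8 in TamCre. Bcl11a, an early lymphoid factor, ranged from 12.6 to 40.1 CPM, Csf2ra from 5.44 to 30.9 and Mef2c from 1.72 to 9.6.

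Genes of beta-selection and the double-positive stage were present at varied levels, 19 of 22 at 1 CPM in all libraries with a median of 21.6 CPM. The coreceptor genes were low: Cd4 had 3.81, 2.59 and 8.72 CPM in MxCre, 13.1, 2.18 and 6.97 in IgG and 5.84, 15.3, 4.42 and 4.48 in TamCre, and Cd8a had 3.11, 8.56 and 9.61, 5.91, 11.4 and 3.73 and 6.49, 23.9, 7.63 and 7.2. TamCre 2 was the highest of the TamCre libraries for both. Cd24a, a surface antigen of immature thymocytes, ranged from 569 to 840.5 CPM, and Cd27, which increases as DN3 cells pass beta-selection, from 173 to 227 CPM. Tfrc, the transferrin receptor of growing cells, ranged from 137 to 268 CPM, highest in MxCre 3. Themis, a regulator of T cell receptor signalling, was the only one of 22 members tested that was called between IgG and MxCre. As 2.92% of all genes tested were called, nothing is read about the list from this 1 call. Themis had 539, 582 and 651 CPM in IgG and 403, 395 and 475 in MxCre (log2 fold change 0.48 ± 0.11 SE, FDR 0.0389), and it had 144 to 166 CPM in TamCre. In bulk libraries fewer cells of a type and less RNA per cell cannot be told apart.

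Mature and unconventional T cell genes were expressed in part, 5 of 13 and 7 of 12 of the alpha-beta and gamma-delta lists at 1 CPM in all libraries (38.5% and 58.3%). These shares lie on either side of the 44.2% over all genes of the table. The mature genes at that level included Ctla4, an inhibitory receptor, at 40.1 to 93.7 CPM, Nkg7, a granule protein, at 7.45 to 15.3 CPM in SMARTer libraries and 62.5 to 72.6 in TamCre, and Ms4a4b at 3.37 to 20.8 CPM. Klf2, a quiescence and egress factor, was at most 1.11 CPM in SMARTer libraries and had 15.8, 4.76, 5.04 and 6.38 in TamCre; Itgb7 ranged from 2.11 to 18.8 CPM. From the gamma-delta list, Tmem176b ranged from 54 to 81.2 CPM, Sox13, a factor of gamma-delta fate, from 30 to 73.2, and Cd163l1, which encodes the scavenger receptor SCART1, from 7.95 to 18.4 in SMARTer libraries and 30.8 to 47.8 in TamCre. Il17a had no read in any library.

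Other lineages had few genes at that level in every library. Of the B cell list 1 of 14 members reached 1 CPM in all libraries, namely Cd79b (18.4 to 41.4 CPM), whereas Pax5, the B lineage factor, had no read in any library. For the myeloid list the count was 1 of 17, namely Lyz2 at 4.06 to 23.2 CPM, and Cd14, Elane and Mertk had no read; Lyz2 and its near-identical neighbour Lyz1 may share reads. From the mast cell list Cpa3, a carboxypeptidase also found in early T progenitors, ranged from 14.2 to 41.7 CPM, and 6 of the 8 genes had no read in any library. The NK and innate lymphoid list had 2 of 16: Gzma, a granzyme, at 163, 86.8 and 193 CPM in MxCre, 133, 121 and 109 in IgG and 210.2, 209, 218 and 192 in TamCre, and Id2. Ncr1, Klrd1 and Klre1, receptors of NK cells, had no read in any library, but other members differed between kits. Of 8 members tested, 6 were called higher and 1 lower in TamCre, beside 34.4% and 32.2% of all genes tested. Their median log2 fold change was 1.61. Some may have passed the filter only through TamCre, since 4 were tested with the SMARTer libraries alone, so nothing is read from that count. Dendritic cell genes gave 3 of 14, namely Cst3 (14.3 to 21.9 CPM in SMARTer libraries, 56.2 to 71.8 in TamCre), Irf8 (3.61 to 14.1) and the class II gene H2-Ab1 (1.76 to 4.31 and 8 to 11.1), with Clec9a, Batf3 and Cd209a at most 0.0658, 0.0279 and 0.0865 CPM. The erythroid and platelet list gave 0 of 12, its highest member Alas2, an enzyme of heme synthesis, at 2.54 to 10.8 CPM in SMARTer libraries and 0.23 to 0.516 in TamCre.

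Stromal lists each held a pair of genes at 1 CPM in all libraries. For thymic epithelium (2 of 10) these were Epcam, at 49.8 to 79.8 CPM, and Ccl25, at 1.44 to 5.86; Psmb11, a proteasome subunit of cortical epithelium, ranged from 2.23 to 8.56 CPM in SMARTer libraries and 0.655 to 1.43 in TamCre. For endothelium and fibroblasts (2 of 10) they were Pecam1, which encodes the adhesion molecule CD31, with 186, 179 and 168 CPM in MxCre, 169, 164 and 166 in IgG and 110.4, 113, 114 and 119 in TamCre, and the receptor gene Pdgfrb, at 48 to 84.9 and 96.6 to 119 CPM in the kits, while Cdh5 of endothelium and Col1a1 of fibroblasts did not exceed 3.3 and 1.6 CPM. Summed over the list, thymic epithelial genes came to 68.4 to 75 CPM in MxCre, 81.4 to 94.8 in IgG and 54.1 to 64 in TamCre. The sums were 27.4 to 39.1, 32.3 to 49.5 and 40.6 to 45.3 CPM for B cell genes and 17.6 to 21.7, 14.9 to 28.4 and 7.47 to 13.5 CPM for myeloid genes. They were larger for lists with a few abundant members, over all 10 libraries 482 to 815 CPM for mature alpha-beta T cell genes, 136 to 266 for gamma-delta genes, 93.2 to 232 for NK and innate lymphoid genes and 213 to 253 for endothelial and fibroblast genes. The DN3 markers summed to 10532 to 13406, 13887 to 14041 and 7092 to 7959.8 CPM.

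**Figure D2:**
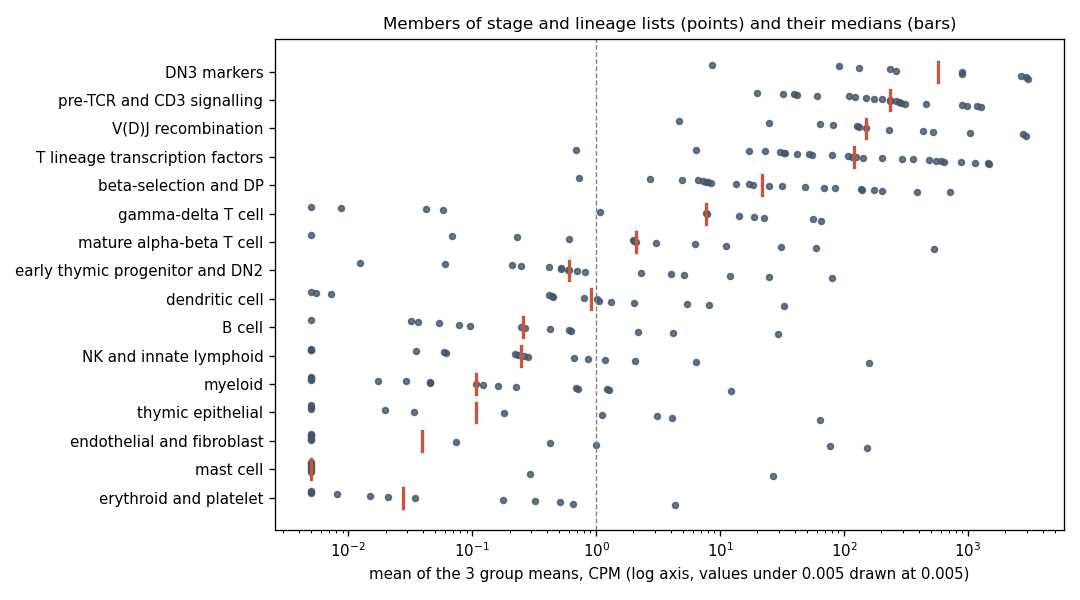
Level of each member of 16 stage and lineage lists, as the mean of the 3 group means in CPM (horizontal log axis, values under 0.005 drawn at 0.005), 1 point per gene, with the list median as a bar and a dashed line at 1 CPM. The medians run from 575 CPM for DN3 markers to 0.599 for early progenitor genes and under 0.107 CPM for mast cell, erythroid and endothelial or fibroblast genes.

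Both kits detected much the same set of genes. Of the 10971 genes at 1 CPM in all 4 TamCre libraries, 93.7% were so in all 6 SMARTer libraries, and of the 10774 genes in all SMARTer libraries 95.4% were so in all TamCre libraries. Ranks agreed less closely: across 13201 tested genes, Spearman's rho between the mean log2 CPM of TamCre and of the SMARTer groups was 0.901, and between IgG and MxCre it was 0.984. These are descriptions across genes, which are not independent replicates. Single libraries gave rho of 0.988 to 0.998 within TamCre, 0.97 to 0.978 within MxCre, 0.977 to 0.979 within IgG and 0.866 to 0.908 between kits. Among the 100 highest genes of each kit by CPM, 53 were shared, and among the 1000 highest, 632. The corresponding numbers for IgG and MxCre were 86 and 910. TamCre and the mean of the SMARTer groups lay within 2-fold for 58.8% of tested genes, and IgG and MxCre for 88.9%.

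**Figure D3:**
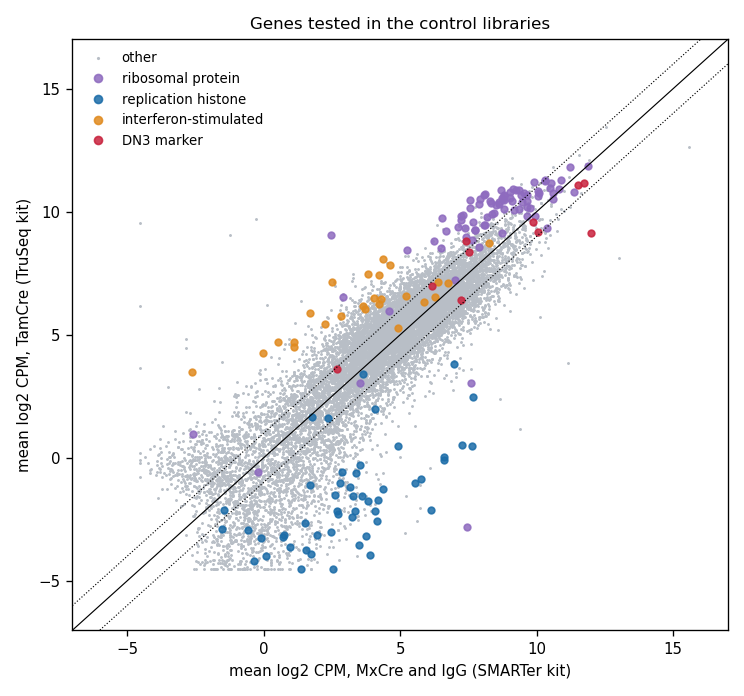
Mean log2 CPM of each tested gene in the 6 SMARTer libraries (horizontal axis, MxCre and IgG weighted equally) and the 4 TamCre libraries (vertical axis), computed with a prior count of 2, which sets the floor of the cloud. Solid and dotted lines mark equality and 2-fold differences. Replication histone genes lie below the diagonal, interferon-stimulated and most ribosomal protein genes above it, and the DN3 markers on both sides.

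The difference between kits varied with transcript length. In the quintile of genes with the shortest transcripts, up to 1922 bases, the median log2 fold change of TamCre over SMARTer was 0.84, and 56.4% of genes were called higher. In the quintile with the longest, from 5168 bases, it was -0.79, and 65.1% were called lower. GC content gave medians from -0.54 in the lowest quintile to 0.64 in the highest. The same length quintiles differed little between IgG and MxCre, from -0.05 to 0.03. Lengths were available for 98.7% of tested genes, and across them rho of length with the log2 fold change was -0.40 between kits and 0.05 between IgG and MxCre. The part of length or GC content in the difference between kits was not tested.

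**Figure D4:**
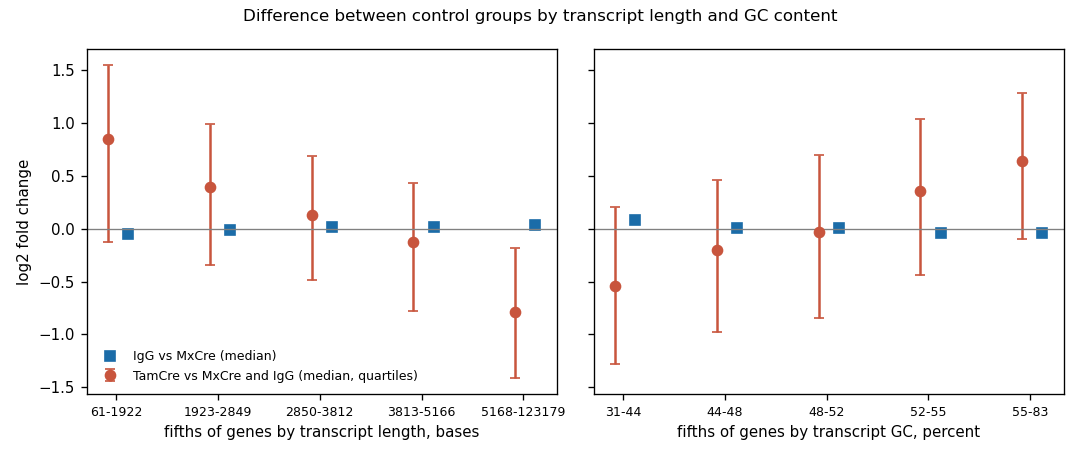
Log2 fold change (vertical axis) in quintiles of tested genes by the length or the GC content of their longest GENCODE transcript (horizontal axes). Points with bars are the median and quartiles of TamCre against MxCre and IgG, and squares are the median of IgG against MxCre. The length medians descend from 0.84 to -0.79 between kits and stay near 0 within the SMARTer kit.

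Between TamCre and the SMARTer groups 8798 of 13201 genes passed, 4542 higher (34.4%) and 4256 lower (32.2%), and in 53.6% of genes the TamCre and SMARTer libraries did not overlap. A change of over 2-fold was called for 4818 genes (36.5%). Housekeeping genes differed between kits as well. Gapdh, the glycolytic enzyme, had 184, 183 and 329 CPM in MxCre, 221, 221 and 186 in IgG and 1339, 1018, 1177 and 1198 in TamCre. B2m, the light chain of class I molecules, ranged from 438 to 562 and 1584 to 1819.6 CPM in the kits, and Ppia, cyclophilin A, from 591 to 1016 and 2102 to 2331 CPM. Actb ran the other way, from 2881 to 4059 CPM in SMARTer libraries and 1552 to 1888 in TamCre. Of the list, 11 higher and 2 lower of 14 tested passed. Ribosomal protein genes were called higher in TamCre for 69 and lower for 4 of 82 tested, with a median log2 fold change of 1.48 and a median transcript length of 1100 bases. Respiratory chain genes gave 69 higher and 1 lower of 75, median 1.40, at a median length of 1005 bases.

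The 10 largest increases in TamCre included Gm9846 (Rps27rt in RefSeq), Gm5643, Gm5512, Gm10052, Ifitm3, Rpl34, Gm20604, Atp5k and Ifi27l2a. RefSeq annotates Gm5643, Gm5512 and Gm10052 as transcribed pseudogenes, and Gm9846, as Rps27rt, bears the name of the ribosomal protein gene Rps27. Rpl34 is a ribosomal protein gene of the kind that has many pseudogenes, and the span of Gm20604 includes Moap1. The values of all these genes are uncertain because reads can be split between copies or overlapping genes. Gm9846 had 743, 816, 743 and 707 CPM in TamCre and no read in any SMARTer library, and Rpl34 had 489.7 to 562 against 1.99 to 8.49 CPM. Atp5k, a small subunit of ATP synthase, had 68 to 76.9 against 0.249 to 4.57 CPM. Gm20604 had 26.2 to 33.5 against 0 to 1.49 CPM, whereas the overlapping Moap1 showed the reverse, 0 to 1.75 in TamCre against 28.5 to 43.9 CPM. The interferon-inducible Ifitm3, which restricts virus entry, had 17.3 to 27.5 against 0 to 0.997 CPM, and the interferon-inducible Ifi27l2a had 8.81 to 13.6 against 0 to 1.87 CPM.

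The largest decreases in TamCre held 5 replication-dependent histone genes, whose mRNAs end in a stem-loop and largely lack a poly(A) tail. Hist2h2ac had 112, 74.2 and 149.9 CPM in MxCre, 47.9, 54.3 and 35.2 in IgG and 0.153, 0.202, 0.318 and 0.126 in TamCre (log2 fold change -8.45 ± 0.31 SE, FDR 2.7e-11). Hist1h4a, Hist1h4k, Hist1h4f and Hist1h2bf were in the same set, with at most 0.0877 CPM in any TamCre library and at least 1.41 CPM in any SMARTer library; copies of histone genes resemble each other, so single members are uncertain. Over all 51 tested histone genes of the clusters, 47 were called lower and 0 higher, where 32.2% of all genes tested were called lower and 34.4% higher. The summed level of the histone genes was 1411 to 2856 CPM in MxCre, 839 to 1185 in IgG and 52.6 to 68.9 in TamCre. Rpph1, the RNA of RNase P, which also has no poly(A) tail, had 1713, 1052 and 397 CPM in MxCre, 870.0, 409 and 362 in IgG and 4.56, 2.09, 1.8 and 1.47 in TamCre. Fam196b, Cd300lf, a myeloid inhibitory receptor gene, and the transcripts 4930478L05Rik and 4931406H21Rik completed the set. The part of the poly(A) tail in these decreases was not tested. Cd300lf had 37.2 to 70.8 CPM in SMARTer libraries and 0.0437 to 0.219 in TamCre. The summed myeloid markers came to 17.6 to 21.7 CPM in MxCre, 14.9 to 28.4 in IgG and 7.47 to 13.5 in TamCre. The part of myeloid cells in the Cd300lf difference was not tested. Of 643 tested lncRNA genes, 311 were called lower and 64 higher in TamCre, beside the same shares over all genes tested, 32.2% lower and 34.4% higher.

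Nearly all interferon-stimulated genes of the list were highest in TamCre, and 13 of 25 were called higher in IgG than in MxCre. Between kits 24 of 25 were called higher in TamCre and none lower, where 34.4% of all genes tested were called higher. The list's median log2 fold change was 2.81, against 0.03 over all genes. The list's median transcript length was 3240 bases, beside 3302 over all genes tested. The part of length or GC content in this difference was not tested. Isg15, a ubiquitin-like modifier, had 4.63, 4.8 and 4.14 CPM in MxCre, 7.45, 8.41 and 5.93 in IgG and 130.5, 127, 158 and 161 in TamCre (log2 fold change 4.65 ± 0.13 SE, FDR 1.57e-12). Irf7, the transcription factor that amplifies the response, had 11.4, 11.1 and 10.7 CPM in MxCre, 20.1, 16.3 and 17.7 in IgG and 163, 159, 192 and 199.6 in TamCre. Oasl2, of the oligoadenylate synthetase family, had 12.2, 12.1 and 18.8 CPM in MxCre, 25.6, 38.8 and 29 in IgG and 225, 228, 318 and 310.5 in TamCre. For each of these no library of 1 group overlapped another group. Ddx58, the RNA sensor RIG-I, differed less, with 62.5 to 110.1 CPM in SMARTer libraries against 127 to 157 in TamCre. Ifit2 was the member not called (18.9 to 57 CPM in SMARTer libraries, 30.6 to 44.3 in TamCre). Within the SMARTer kit, 13 of 25 were called higher in IgG than in MxCre and none lower, where 0.894% of all genes were called higher, with a list median of 0.78. Ifit1 had 12, 8.31 and 9.11 CPM in MxCre and 19.6, 25.9 and 40.8 in IgG (log2 fold change 1.55 ± 0.25 SE, FDR 0.00998). The number of calls fell to 2 when only the 6 SMARTer libraries were fitted and to 3 without IgG 3, with list medians of 0.73 and 0.80.

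Factors activated by interferon bind a DNA element found in the promoters of many such genes, and 3 promoters are shown for where its core lies. In RefSeq promoter windows on GRCm38.p6, from 250 bases before to 50 bases after the start of transcription, the core of the interferon-stimulated response element was searched as the 4 bases GAAA, any 2 bases, and GAAA again, or TTTC, any 2 bases and TTTC for the other strand; overlapping matches were each counted. The windows of the 3 listed genes with a match and the largest log2 fold changes in TamCre, among those of at least 10 CPM there, are printed 5′ to 3′ with the matches in capitals.
Isg15 promoter, chr4:156200769-156201068, minus strand: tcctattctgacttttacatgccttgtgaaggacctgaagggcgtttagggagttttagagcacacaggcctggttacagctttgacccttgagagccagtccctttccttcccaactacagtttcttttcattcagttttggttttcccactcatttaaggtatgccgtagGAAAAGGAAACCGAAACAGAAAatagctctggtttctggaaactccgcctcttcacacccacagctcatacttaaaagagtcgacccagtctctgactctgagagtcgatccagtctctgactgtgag
Ifit3 promoter, chr19:34583279-34583578, plus strand: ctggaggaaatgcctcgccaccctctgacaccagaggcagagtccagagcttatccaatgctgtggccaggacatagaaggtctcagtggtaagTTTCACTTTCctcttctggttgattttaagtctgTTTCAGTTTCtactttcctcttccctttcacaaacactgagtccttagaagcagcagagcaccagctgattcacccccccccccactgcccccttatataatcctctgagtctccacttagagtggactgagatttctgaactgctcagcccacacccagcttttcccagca
Oas1a promoter, chr5:120907476-120907775, minus strand: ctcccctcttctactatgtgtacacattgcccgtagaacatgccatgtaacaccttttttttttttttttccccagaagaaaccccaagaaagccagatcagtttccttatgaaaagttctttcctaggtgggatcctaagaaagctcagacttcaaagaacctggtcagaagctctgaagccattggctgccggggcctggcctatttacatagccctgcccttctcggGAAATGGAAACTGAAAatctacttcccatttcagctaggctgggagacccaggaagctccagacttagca
The window of Isg15 held 3 matches, that of Ifit3 2 and that of Oas1a 2. In Isg15 the matches lay 78 bases or fewer before the start, in Oas1a 20 bases or fewer, and the first match of Ifit3 began 156 bases before it. Of the 25 listed genes, 17 had a window and 11 of those held a match, against 3.92% of all 17672 genes with a window and 3.77% of the 10463 tested genes with one. Of all 32851 windows 3.44% held one. Oasl2 and Irf7 held none within these bounds. Ifit3 had 0.527, 0.0615 and 0.828 CPM in MxCre, 2.21, 1.62 and 4.83 in IgG and 16, 14.2, 24 and 24 in TamCre, and Oas1a had 1.35, 3.14 and 1.049, 2.67, 2.68 and 2.69 and 25.1, 20, 28.6 and 32.8. A match is a description of the letters in the window, not a measured site.

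Within the SMARTer kit 386 genes passed between IgG and MxCre, 118 higher and 268 lower in IgG (2.03%); 1.35% of genes were called with a change of over 2-fold. With counts scaled by totals alone 374 passed, 218 higher and 156 lower, and the median over all genes moved from 0.00 to 0.12. Treatment and time differ between these groups, and the labels name no genotype for the IgG mice. The parts of treatment, time and genotype cannot be told apart. Genes of cell division were lower in IgG: 11 of 24 S phase genes and 11 of 22 mitosis genes were called lower and none higher, with medians of -0.76 and -1.66. Mki67, the proliferation antigen, had 973, 659 and 1956 CPM in MxCre, 264, 331 and 285 in IgG and 620.4, 602, 721 and 739 in TamCre (log2 fold change -2.03 ± 0.33 SE, FDR 0.0168). Top2a, the topoisomerase of dividing cells, had 561, 411 and 1227 CPM in MxCre, 192, 226 and 208 in IgG and 764, 594, 839 and 815 in TamCre. Pcna, the clamp of the replication fork, had 376, 341 and 593 CPM in MxCre, 241, 231 and 239 in IgG and 748, 673, 763 and 744 in TamCre (log2 fold change -0.88 ± 0.16 SE, FDR 0.0135). MxCre 3 was the highest SMARTer library for each, and IgG and MxCre did not overlap for any of the 3, as was so for 18.9% of genes tested.

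Kif11, a spindle motor, and Ccna2, cyclin A2, were likewise highest in MxCre 3 and lowest in IgG but missed the threshold between IgG and MxCre (Kif11 log2 fold change -1.78 ± 0.41 SE, FDR 0.0581; Ccna2 log2 fold change -1.88 ± 0.46 SE, FDR 0.073). The helicase genes Mcm6, Mcm7 and Mcm2 gave -0.54, -0.51 and -0.45 on the log2 scale, none called. Summed over the list, mitosis genes came to 901 to 1033 CPM in IgG, 1786 to 5501 in MxCre and 3398 to 4382 in TamCre. Without MxCre 3 the mitosis median was -1.02 with 16 calls, and the S phase median -0.51 with 9 calls. No member of either list was called without IgG 3, where 32 genes passed in all, although the medians were -1.64 and -0.69. The mitosis sums of TamCre lay within the MxCre range, whereas the S phase sums were 5679 to 7331 CPM in TamCre, 3977 to 6608 in MxCre and 2853 to 3179.5 in IgG. Against the mean of MxCre and IgG, 20 of 22 mitosis and 19 of 24 S phase genes were called higher in TamCre and none lower, where 34.4% of all genes tested were called higher.

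**Figure D5:**
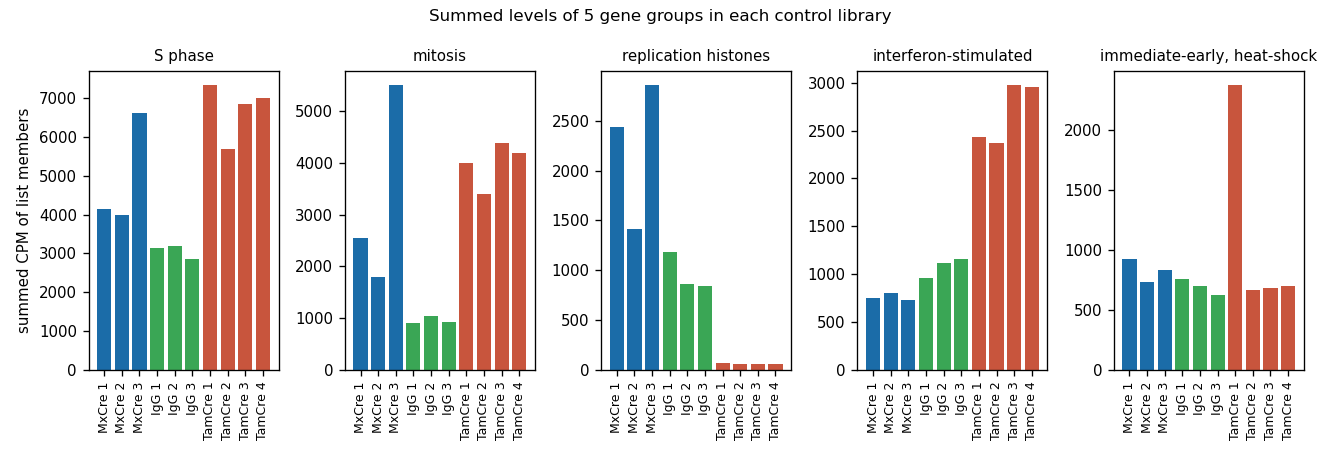
Summed CPM (vertical axes, each from 0) of the members of 5 gene groups in each of the 10 control libraries (bars), coloured by group. MxCre 3 has the highest mitosis sum, 5501 CPM, TamCre 1 the highest immediate-early and heat-shock sum, 2377 CPM, and the replication histone sum is at most 68.9 CPM in TamCre.

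The largest called decrease in IgG against MxCre was Syne1, which encodes the nuclear envelope protein nesprin-1, on chr10:5020192-5550692 of GRCm38.p6. It had 175, 162 and 130.0 CPM in MxCre, 1.08, 1.56 and 0 in IgG and 0.0982, 0, 0.0768 and 0.0977 in TamCre (log2 fold change -7.45 ± 0.62 SE, FDR 0.00266), and it was the only gene of the table at 10 CPM or more in all MxCre libraries and at 2 CPM or less in all others. The next largest decreases in IgG were Cdca3, a cell division gene (29.8, 14.7 and 53.1 CPM in MxCre, 7.09, 4.17 and 4.83 in IgG), the histone genes Hist1h2bm and Hist1h4h, and Fam64a, a mitotic regulator. The largest increases were Igf2bp3, an RNA-binding protein of fetal cells, with 9.43, 18.6 and 18.7 CPM in MxCre and 54.7, 47.4 and 49.8 in IgG (log2 fold change 1.70 ± 0.33 SE, FDR 0.0179), then Rsad2, an antiviral enzyme (6.45, 2.34 and 4.58 and 13, 20.2 and 7.46), 1500004A13Rik, Ifit1 and Xkr8, a scramblase of apoptotic cells (5.21, 5.79 and 3.09 and 7.81, 10.3 and 22.2).

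The steadiest genes over both kits, of at least 100 CPM on average, were Asxl1, Nfx1, Wdr43, Spop, Nckap1l, 2310008H09Rik, Nrd1, Stat5a, Usp7 and Il17ra, with coefficients of variation over the 10 libraries from 4.86% to 5.99%. Asxl1, a Polycomb-associated chromatin regulator, ranged from 269.9 to 311 CPM. Usp7, a deubiquitinase, ranged from 429 to 529.9 CPM, and Nckap1l, a haematopoietic regulator of actin, from 243 to 294. By comparison the coefficients of variation were 11.7% for Rpsa, 9.95% for Zmiz1, 17.1% for Notch1, 32.1% for Actb and 83.3% for Gapdh. These genes were selected for their low spread, which is a description of the 10 libraries.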

How the data were processed

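The tools named per the submitters' processing notes are FastQC 0.10.0, TopHat2 2.0.9, Bowtie2 2.1.0.0, Cufflinks and Cuffdiff 2.1.1, with the build mm10; the gene annotation used, strand handling and counter settings were not stated. The authors deposited expected counts per gene, of which 98.33% were whole numbers in the control libraries, and group mean FPKM, named so per the file headers. In the deposited FPKM, a value of about 0.134 predicted from CPM was listed at 1.14 and one of 3.2 at 3.2, so 1 appears to have been added to values under 1 and only values of 2 or more are used.

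Counts of the 10 control libraries were rounded, filtered with filterByExpr, scaled by TMM and tested in 1 fit with edgeR 4.0.16 (robust quasi-likelihood F test, R 4.3.3) for TamCre against the mean of MxCre and IgG and for IgG against MxCre, with Benjamini-Hochberg adjusted p (FDR) under 0.05 as a call. The spread is pooled over all 10 libraries. Log2 CPM used a prior count of 2. P-values for IgG measure spread between samples, which may be technical. No pair of libraries agreed within counting noise. Replicate numbers were not treated as pairs in the main fit. The script was tested on simulated counts. Alternatives were RLE factors, no scaling factor, no filter, DESeq2 1.42.0, a replicate block, the SMARTer libraries alone, and leaving out each library. Gene symbols were matched to RefSeq for 23193 of 23284 genes, and lengths came from GENCODE M21. Named genes were the 10 highest by CPM and FPKM, all DN3 markers, the 4 highest of each other list and its members called where 5 or fewer, the 10 largest called increases and decreases between kits and 5 between IgG and MxCre with groups not overlapping and a mean of 10 CPM in 1 group, and the 10 genes of lowest variation; others were added after their values were seen. Some genes that this rule names are not reported here. The members and gene lists were chosen with earlier results of these data known. The tables of the perturbed groups were not used, except for Syne1 and its neighbours on chromosome 10 in the closing section.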

Additional observations from a re-analysis of the deposited data

Results flagged for a closer look

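With 4 TamCre libraries, a library was marked when its gap to the nearest other exceeded Dixon's 95% critical value for 4 samples. Chance marks about 1 in 20 groups. Of 206 genes examined, 19 were marked. The 206 include genes added after their values were seen, among them Fos, Hspa1a, Gata3, Lef1, Il2rb, Cd4, Cd8a and Id3. The number marked therefore cannot be compared with chance. In 13 of the marked genes TamCre 1 was the highest. Its immediate-early and stress genes stood far apart: Fos was at 227 CPM against 0.285 to 0.893 in the other TamCre libraries, Jun at 384 against 24.9 to 34.2, Jund at 168 against 56.6 to 58.3, and Hspa1a, whose reads may be shared with its copy Hspa1b, at 144 against 0.98 to 7.23. TamCre 1 was also highest for Klf2 (15.8 against 4.76 to 6.38 CPM), Il2rb (6.09 against 0.293 to 0.778), Ifng (1.45 against 0.0558 to 0.183), Id2 (9.91 against 8.05 to 8.36), Id3 (38.6 against 28.4 to 29.1), Lef1 (405 against 243 to 254), Gata3 (120.3 against 111 to 112), Notch1 (2681 against 1988 to 2089) and Gm20594 (28.4 against 10.4 to 12.6).

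TamCre 2 was highest for both coreceptor genes, Cd4 (15.3 against 4.42 to 5.84 CPM) and Cd8a (23.9 against 6.49 to 7.63), and lowest for Ccna2 (178 against 237 to 239.9) and Rsad2 (40.8 against 58.2 to 60.2). TamCre 3 was highest for Hmgb2 (997 against 872 to 891), and TamCre 4 lowest for Atp5k (68 against 76 to 76.9).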

How the results depend on the processing

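The number of genes called between TamCre and the SMARTer groups, 8798, lay between 7932 and 9060 under other scalings, no filter, DESeq2 and the replicate block, and between 8015 and 9220 with 1 library left out; requiring a 2-fold change left 4818. Between IgG and MxCre the number was 386 and less stable: DESeq2 gave 955, the SMARTer libraries alone 135, a required 2-fold change 178, and leaving out 1 library 32 (IgG 3) to 743 (MxCre 2), with 113 without IgG 2, 178 without TamCre 3 and 164 without TamCre 4; the last pair leaves the compared libraries as they are and changes the pooled spread. Deviations of same-numbered libraries from their group means correlated at -0.02 to 0.11, and those of other pairs at -0.14 to 0.10. With 3 or 4 libraries per group this cannot exclude a pairing. With a replicate block 233 genes passed between IgG and MxCre and 7932 between TamCre and the SMARTer groups. Of named genes called, 135 of 146 between kits and 3 of 28 between IgG and MxCre kept the call under every alternative, and none changed direction. The rank agreement between kits, 0.901, was 0.84 over genes at 1 CPM in all libraries and 0.899 to 0.903 with 1 library left out. Genes at 1 CPM in all libraries numbered 10281, with 10777 at 0.5 CPM, 8622 at 5 CPM and 10290 to 10360 with 1 library left out; list members so expressed numbered 253, with 261 and 221 at those thresholds and 253 to 254. At the depth of the smallest library, a TamCre library would show 14173 to 14421 genes in place of 14926 to 15109. The causes of these changes were not tested.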

Other observations

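Syne1 was also examined in the perturbed libraries after its values in the controls were seen, in CPM of total counts. In the 3 DeltaMxCre libraries, whose mice carried MxCre with floxed Zmiz1, it lay at 171 to 195 CPM, beside 123 to 171 in MxCre. The 3 libraries from mice given the antibody against Notch1 held 0 to 2.82 CPM and the 4 DeltaTamCre libraries 0.0138 to 0.0915. All 6 libraries from MxCre mice were thus above all 14 others. Its neighbours did not share this pattern: Esr1, which lies next to it on chromosome 10, had 25 to 37 CPM in MxCre, 36 to 37.4 in IgG and 73.1 to 81.5 in TamCre, and Myct1 on the other side had no read in any library.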
